A study of Mus musculus with 9 samples.

Results

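All 9 deposited colon libraries of wild-type mice were grouped by the raw count of Slc10a2, the apical sodium-dependent bile acid transporter, which takes conjugated bile acids up from the gut lumen. Libraries with 100 or more counts formed the Slc10a2-high class (4 of 9) and libraries with 30 or fewer counts formed the Slc10a2-low class (5 of 9). The classes were therefore made from a measured gene and are not groups of the study. Slc10a2 itself is only described, and a p-value for another gene says how firmly that gene followed the same split, not that a treatment acted on it.

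The mice were females of the C57BL/6N strain, wild type, and 12 months old. WT_SE mice lived in standard cages in small groups, and WT_EE mice lived in larger, enriched cages. A piece of upper colon of 2 to 3 cm was flushed, rinsed and frozen, and part of it was used for 3′ messenger RNA libraries. The transgenic mice of the same experiment are not analysed here. WT_SE mice 2 and 3 and WT_EE mice 1 and 3 were Slc10a2-high, and WT_SE mice 1 and 5 and WT_EE mice 2, 4 and 5 were Slc10a2-low, so that each environment held libraries of both classes. All values come from bulk tissue, in which fewer cells of a type and less RNA per cell cannot be told apart.

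The colon is patterned along its length. Hox genes, transcription factors that lie in 4 clusters, are used in overlapping domains from head to tail, and the later members of a cluster are used further down the gut. The upper colon lies next to the cecum and ileum and shares with them the genes of bile acid uptake, whereas the lower colon absorbs salt and water and carries a thicker mucus layer.

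Slc10a2 (Ensembl gene ENSMUSG00000023073, chr8:5083219-5105351 on the minus strand of GRCm38, GENCODE positions) had counts in 2 separated ranges. They were 3 in WT_EE mouse 2, 4 in WT_EE mouse 4, 10 in WT_EE mouse 5, 16 in WT_SE mouse 5 and 26 in WT_SE mouse 1. They were 103 in WT_SE mouse 2, 107 in WT_EE mouse 1, 110 in WT_SE mouse 3 and 117 in WT_EE mouse 3. The highest low library thus had 26 counts and the lowest high library 103, with no library between them. In CPM (counts scaled to the normalized library total), Slc10a2 stood at 286 ± 61.3 (SD, n = 4) in the high class and 31.4 ± 24.2 (SD, n = 5) in the low class.

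The files hold molecule counts per gene. Totals were 299062 to 454043 in the high class and 295535 to 426436 in the low class, so they overlapped over both environments together. Within each environment they did not overlap, and the direction differed. In WT_SE the high libraries had 299062 and 356704 counts and the low libraries 368997 and 383401. In WT_EE the high libraries had 444520 and 454043 counts and the low libraries 295535, 336967 and 426436. A floor of 3 counts, which corresponds to 6.61 to 10.2 CPM, was taken as the detection limit and covers counting error only. The summed counts of 473 highly counted genes (means of 100 to 400) rose with library total with a slope of 0.47 on log scales. For 4215 genes counted less (means of 10 to 30) the slope was 1.34. Fold changes of highly counted genes are therefore on a compressed scale. Their CPM also tended to fall as the total rose, and totals ran with the class within each environment. The part of this in their class differences was not tested. Epcam, an adhesion protein of epithelial cells, was present in both classes, at 357 ± 53.4 CPM in the high class and 398 ± 32.9 CPM in the low class. Fat-cell genes varied widely, from a summed 259 to 1649 CPM within the low class, and the highest value was that of WT_SE mouse 1.

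The 4 Hox genes that were named along with Slc10a2 all passed the test, in opposite directions. They were chosen with earlier results of these data known, so that they passed is a description and no support for the split. Hoxd10 (chr2:74691924-74695105) had 22, 8, 5 and 12 counts in WT_SE mice 2 and 3 and WT_EE mice 1 and 3, and 2, 0, 0, 0 and 2 counts in WT_SE mice 1 and 5 and WT_EE mice 2, 4 and 5. Its neighbour Hoxd11 (chr2:74679557-74687016) had, in the same order, 28, 16, 14 and 14 counts against 11, 8, 8, 5 and 4 counts. Neither gene overlapped between the classes. Hoxd10 rose by 3.54 ± 0.57 on the log2 scale (edgeR quasi-likelihood, Benjamini-Hochberg adjusted p = 1.94e-07; the ± gives the SE of a fold change), and Hoxd11 rose by 1.15 ± 0.32 (edgeR, Benjamini-Hochberg adjusted p = 0.0255). Here and below, the SE and p-value of this test use a spread shared by genes of a given level. They do not measure a gene's own spread between mice. The low class held at most 2 counts of Hoxd10 in any library, which is under the floor.

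Hoxa13 and Hoxb13, the last genes of their clusters and markers of the hind end of the gut, went the other way. Hoxa13 (chr6:52257694-52260880) had 11, 18, 27 and 21 counts in the high libraries and 37, 40, 29, 25 and 33 counts in the low libraries. Its normalized values did not overlap, and it fell by 0.90 on the log2 scale (edgeR, SE 0.23, Benjamini-Hochberg adjusted p = 0.00742). Hoxb13 (chr11:96194316-96197447) had 0, 0 and 0 counts in WT_SE mice 2 and 3 and WT_EE mouse 1 but 21 counts in WT_EE mouse 3. In the low class it had 4 counts in WT_SE mouse 1 and 56, 45, 24 and 20 counts in WT_SE mouse 5 and WT_EE mice 2, 4 and 5. It fell by 2.69 (edgeR, SE 0.31, Benjamini-Hochberg adjusted p = 4.34e-15), but the classes overlapped, because WT_EE mouse 3 had more counts than WT_SE mouse 1. Without WT_EE mouse 3 the high class had no count of Hoxb13.

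**Figure D1:**
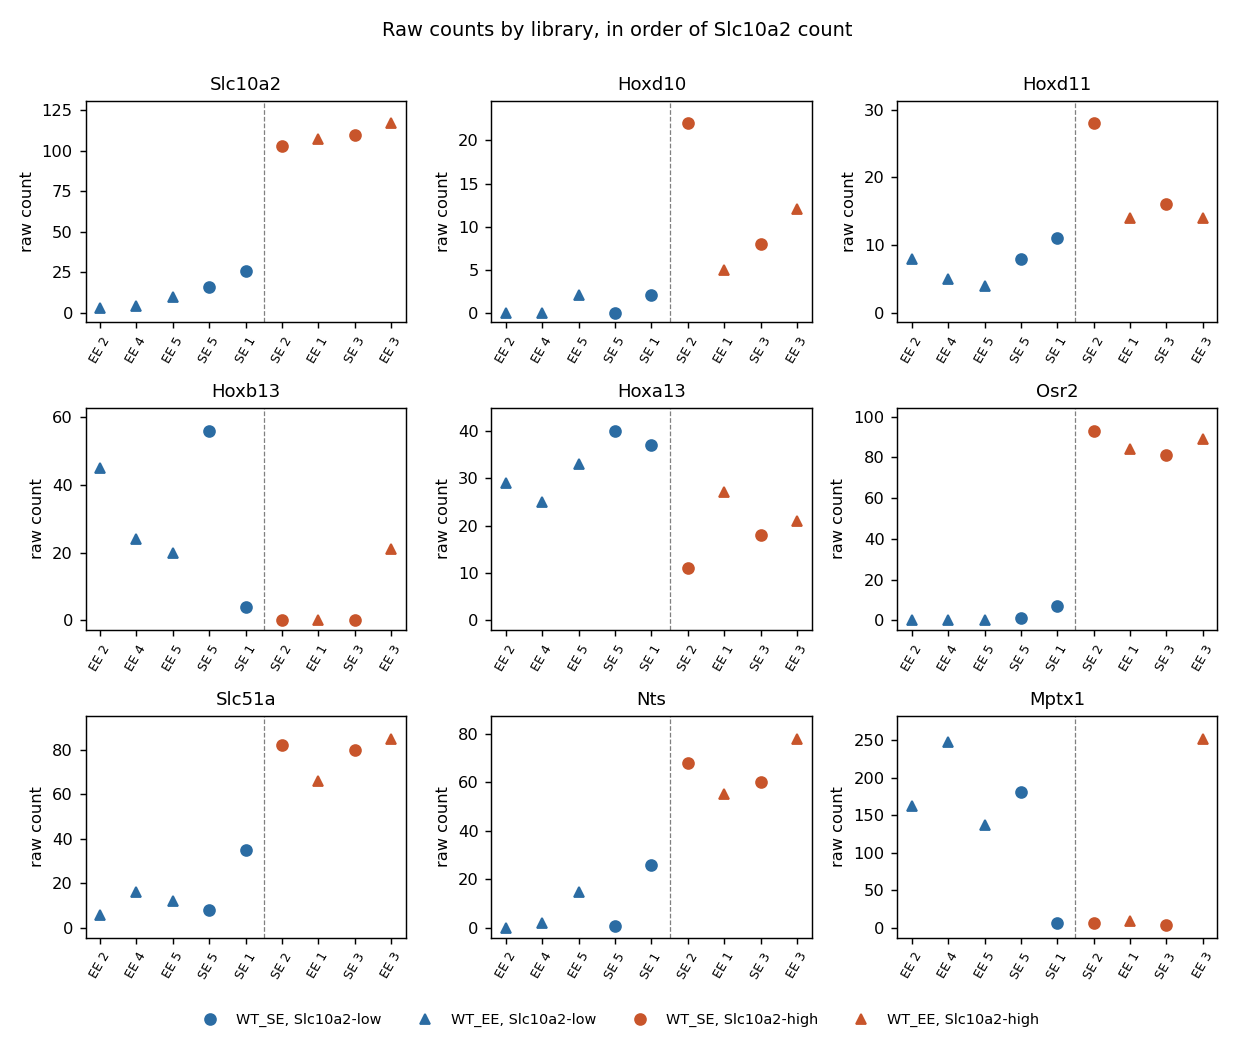
Raw counts (vertical axis, own scale per panel) of Slc10a2, its 4 named Hox genes and 4 further genes in each of the 9 libraries, which stand in order of Slc10a2 count; circles are WT_SE and triangles WT_EE, blue is Slc10a2-low and orange Slc10a2-high. Osr2 lies between 0 and 7 counts in every low library and between 81 and 93 in every high library, whereas Mptx1 and Hoxb13 are high in WT_EE mouse 3 although that library is Slc10a2-high.

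Across the genome, 284 of 17440 genes other than Slc10a2 differed between the classes with environment as a covariate (edgeR quasi-likelihood, Benjamini-Hochberg adjusted p under 0.05), which is 1.63% of the genes tested. Of these, 133 were higher in the high class (0.763%) and 151 were lower (0.866%). The change was at least 2-fold for 80 of the higher and 74 of the lower genes, and at least 4-fold for 33 and 19. The classes did not overlap for 82 of the higher and 72 of the lower genes, which together are 0.883% of the genes tested. Called or not, the high class lay wholly above the low class for 1.58% of all genes and wholly below it for 1.34%, and 1514 genes (8.68%) had an unadjusted p under 0.05. The median log2 fold change over all genes was 0.01. The test as designed took the same spread for all genes of a given level, and a newer form of it, which lets each gene's own spread count, called 190 genes, 188 of them among the 284. DESeq2 called 81 genes, all of them among the 284, and 61.7% of these were higher against 46.8% here.

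The genes described first in each direction are those of smallest p-value among the called genes whose classes did not overlap, so that the lack of overlap was fixed by this choice. The higher ones included patterning, defence, hormone and bile acid genes. Osr2 on chromosome 15 (chr15:35296098-35303305), an odd-skipped zinc-finger transcription factor of embryonic patterning, had 93, 81, 84 and 89 counts in WT_SE mice 2 and 3 and WT_EE mice 1 and 3. It had 7 and 1 counts in WT_SE mice 1 and 5 and 0 counts in WT_EE mice 2, 4 and 5. This was the gene with the smallest p-value, with a rise of 5.53 ± 0.30 on the log2 scale (edgeR, Benjamini-Hochberg adjusted p = 1.85e-73). Its lowest high library had 81 counts and its highest low library 7.

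Reg3b, a secreted C-type lectin that acts against bacteria, had 97, 91, 79 and 51 counts in the high libraries in the same order and 10, 1, 0, 7 and 4 counts in the low libraries. The highest low library had 10 counts, and the fitted rise was 16.0-fold (edgeR, Benjamini-Hochberg adjusted p = 4.54e-53). Its neighbour in the genome, Reg3g, which encodes a related lectin, rose by 2.91 ± 0.28. Nts, the precursor of neurotensin, a hormone of enteroendocrine cells in the ileum, had 68, 60, 55 and 78 counts against 26, 1, 0, 2 and 15 counts. It rose by 2.76 ± 0.23 (edgeR, Benjamini-Hochberg adjusted p = 5e-30), and WT_SE mouse 1 was the highest of the low libraries, as it was for Slc10a2.

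Slc51a, a subunit of the basolateral exporter that passes bile acids on to the blood, had 82, 80, 66 and 85 counts against 35, 8, 6, 16 and 12 counts. It rose by 2.21 ± 0.19 (edgeR, Benjamini-Hochberg adjusted p = 6.35e-27). The next genes of this choice were Fmo5, a flavin monooxygenase (2.11 ± 0.20), Prap1, a secreted protein of the gut epithelium (2.99 ± 0.29), Ces1g, a carboxylesterase (2.42 ± 0.24), Hoxb4 (2.12 ± 0.22), Defb37, a beta-defensin (3.86 ± 0.42), Prkg2, a cGMP-dependent protein kinase of the epithelium (1.73 ± 0.20), and Ifit1bl2, of an interferon-induced family (1.88 ± 0.22). Reg3b and Reg3g, and the Ces1, Cyp, Ugt2b and Akr1c families below, have close copies between which the counting could split reads, so their single values are uncertain to that extent.

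The lower genes without overlap included water channels and secreted proteins of the surface epithelium. Other lower genes with small p-values, among them Grip2, Mptx1, Hoxb13, Ang4 and Insl5, overlapped between the classes and are not in this choice. Aqp8, a water channel of the surface epithelium, had 17 and 2 counts in WT_SE mice 2 and 3 and 68 counts in each of WT_EE mice 1 and 3, against 81, 110, 107, 111 and 101 counts in WT_SE mice 1 and 5 and WT_EE mice 2, 4 and 5. It fell by 1.65 (edgeR, SE 0.16, Benjamini-Hochberg adjusted p = 5.02e-22). Retnlb, a resistin-like protein that goblet cells secrete, had 21, 1, 108 and 113 counts in the high libraries and 121, 131, 115, 162 and 149 counts in the low libraries, and fell by 1.48 (edgeR, SE 0.15, Benjamini-Hochberg adjusted p = 8.38e-21). For both genes the high WT_SE libraries were the lowest of the 9, and the high WT_EE libraries lay between them and the low class.

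The gene 2010109I03Rik had 2, 1, 34 and 32 counts in the high libraries and 52, 52, 67, 58 and 74 counts in the low libraries, a fall of 2.04 (edgeR, SE 0.20, Benjamini-Hochberg adjusted p = 2.75e-20). Hoxa11os, transcribed opposite to Hoxa11, had 10, 1, 34 and 41 counts against 40, 60, 63, 55 and 49 counts, a fall of 1.53 (edgeR, SE 0.20, Benjamini-Hochberg adjusted p = 1.17e-11). WT_EE mouse 3 had 1 count more of Hoxa11os than WT_SE mouse 1, and only after normalization was it lower. The next genes of this choice were Aqp4, another water channel (-1.09 ± 0.14), Clca4a, a regulator of chloride currents (-1.09 ± 0.15), the transglutaminase Tgm3 (-3.70 ± 0.53), B3gnt5, an enzyme of glycolipid synthesis (-2.29 ± 0.33), Spink1, an inhibitor of trypsin (-1.05 ± 0.15), the matrix protein Thbs4 (-1.35 ± 0.21), Hoxa10 (-1.02 ± 0.16) and Grem1, an inhibitor of BMP signalling made by stromal cells (-1.20 ± 0.20).

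**Figure D2:**
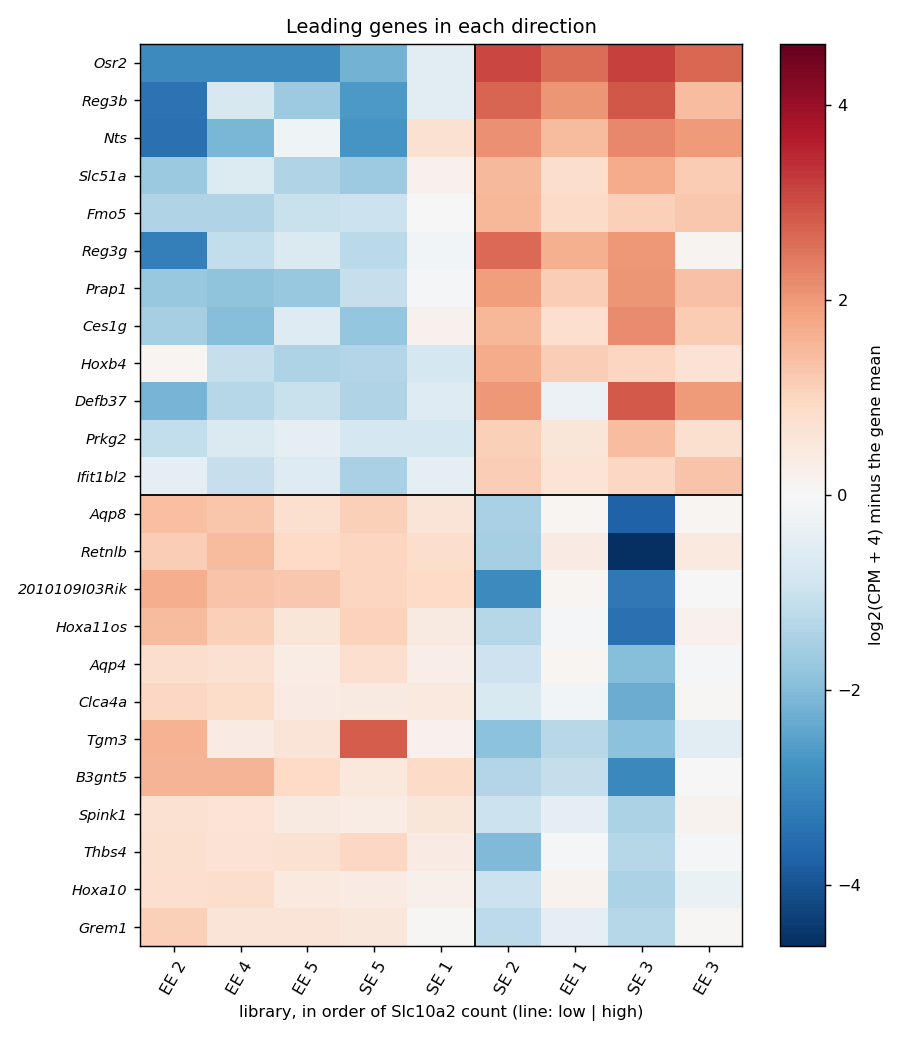
The 12 called genes in each direction with the smallest p-value among those whose classes did not overlap (rows) in the 9 libraries (columns, in order of Slc10a2 count), as log2(CPM + 4) minus the mean of the gene; red is above and blue below that mean, the upper block holds genes higher and the lower block genes lower in the Slc10a2-high class. WT_SE mouse 1 is paler than the other low libraries for most genes of the upper block, and WT_SE mice 2 and 3 carry the deepest blue of the lower block.

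Hox genes were described as whole clusters, and their changes ran with the cluster they belong to as well as with their place in it. In the Hoxb cluster on chromosome 11, 6 of 9 genes tested were higher and 1 was lower, against 0.763% and 0.866% of all genes. The 6 were the run from Hoxb3 to Hoxb8, with log2 fold changes of 1.38 for Hoxb3, 2.12 for Hoxb4, 1.64 for Hoxb5, 2.22 for Hoxb6, 1.59 for Hoxb7 and 1.70 for Hoxb8. The classes overlapped for Hoxb7 and Hoxb8. Hoxb9, the next gene, stood at 0.47 and did not pass the test (edgeR, Benjamini-Hochberg adjusted p = 0.115), and Hoxb13 at the end was the gene that fell.

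In the Hoxa cluster on chromosome 6, 0 of 10 genes tested were higher and 4 were lower, against 0.763% and 0.866% of all genes. These were Hoxa7 (-0.80 ± 0.17), Hoxa9 (-1.21 ± 0.20), Hoxa10 and Hoxa13, and the classes overlapped for Hoxa9. In the Hoxd cluster on chromosome 2, 3 of 6 genes tested were higher and none was lower. Hoxd4 rose by 2.74 ± 0.33, from 2 to 6 counts in the low libraries to 12 to 47 counts in the high libraries, and the other members were Hoxd10 and Hoxd11. No gene of the Hoxc cluster passed the test among 5 tested, at a median of 0.83. Over all clusters, 7 of 20 genes of paralog groups 1 to 8 were higher and 1 was lower, with a median log2 fold change of 1.43, and 2 of 10 genes of groups 9 to 13 were higher and 4 were lower, with a median of 0.01. Hoxd4 overlaps Hoxd3 on the same strand, and Hoxb3 and Hoxb6 overlap transcripts on the other strand. The strand setting of the counting is not given in the sources used here.

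**Figure D3:**
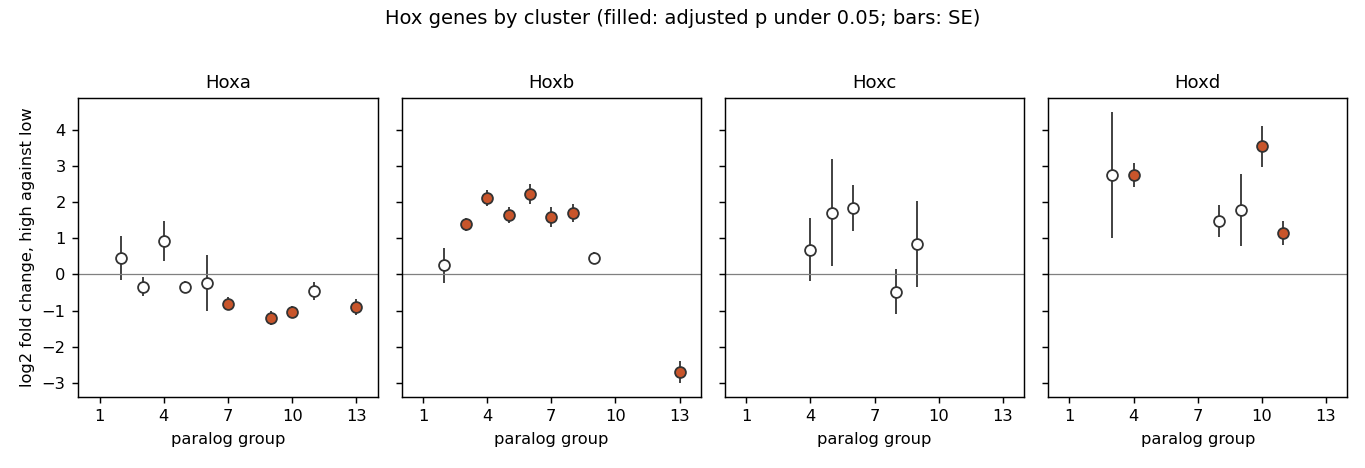
Log2 fold change of the Slc10a2-high against the Slc10a2-low class (vertical axis, bars show the SE) for every Hox gene tested, by cluster (panels) and paralog group (horizontal axis); filled points have an adjusted p under 0.05. Hoxb3 to Hoxb8 lie between 1.38 and 2.22 and Hoxb13 at -2.69, the later Hoxa genes lie below 0, and Hoxd4, Hoxd10 and Hoxd11 lie above 0.

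Of 29 other transcription factors that pattern the gut, 3 were higher and none was lower, against 0.763% and 0.866% of all genes. Besides Osr2 they were Tbx3, a T-box factor (1.36 ± 0.22), and Isx, an intestine-specific homeobox factor that represses vitamin A uptake (0.67 ± 0.16), and none of the 3 overlapped. The caudal-type factors Cdx1 and Cdx2, which mark the intestine as a whole, did not pass the test. Cdx1 differed by -0.02 (95% interval -0.29 to 0.26) and Cdx2 by -0.12 (95% interval -0.52 to 0.29).

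The pathway of Slc10a2 itself, bile acid uptake and signalling, had 4 of 14 members higher and none lower, with a median log2 fold change of 0.45 over the list, against 0.763% of all genes higher and a median of 0.01. Slc51a was followed by Fabp6, the ileal bile acid binding protein inside the cell (2.77 ± 0.36), Nr1h4, the bile acid receptor FXR (0.90 ± 0.20), and Slc51b, the other subunit of the basolateral exporter (0.72 ± 0.17). Fabp6 had 14 to 34 counts in the high libraries and 0 to 5 counts in the low libraries, and the normalized values overlapped for none of the 4 genes. The nuclear receptors Vdr and Nr1i2, the exporter Abcc3 and the oxidase Cyp27a1 did not pass the test. Slc51b had 47 to 72 counts in the high libraries and 19 to 48 counts in the low libraries, which overlapped only before normalization.

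The list of small intestine markers, which also holds Fabp6, was mixed. It had 3 of 19 higher and 1 lower, against 0.763% and 0.866% of all genes. Sis, sucrase-isomaltase of the brush border, had 12, 23, 8 and 15 counts in the high libraries and 1, 1, 0, 0 and 0 counts in the low libraries. Pooled, these are 58 against 2 counts, a ratio of 33.8 after scaling to library totals, with a 95% counting interval of 8.94 to 286. Amn, which anchors the vitamin B12 receptor, rose by 2.18 ± 0.45, from 0 to 6 counts to 10 to 16 counts. Slc15a1, the peptide transporter, fell by 1.69 (edgeR, SE 0.37, Benjamini-Hochberg adjusted p = 0.000666), and its classes overlapped. Other members of the list stood at very different levels. Mgam, a brush border glucosidase, had 81 to 100 counts in the high libraries and 56 to 94 counts in the low libraries, and Slc5a1, the sodium-glucose transporter, 61 to 96 and 55 to 83 counts. The apolipoprotein Apoa1, the retinol-binding protein Rbp2 and the amino acid transporter Slc6a19 had at most 1, 2 and 1 counts in any library, and 5 genes of the list had no count listed in any library used here. Of 12 Paneth cell genes 7 had no count listed, and the 3 tested did not pass the test. Itln1 had 0 to 25 counts in the high class and 0 to 24 counts in the low class.

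Enzymes that modify foreign compounds and retinoids had the most higher members of any list, 10 of 38 with 1 lower and a median log2 fold change of 0.28. They also had the most genes tested, and the share was larger for Hox groups 1 to 8 (7 of 20) and bile acid genes (4 of 14). Over all genes 0.763% were higher. The first 4 of the enzymes were Cyp4b1 (2.52 ± 0.32), Cyp2d26 (1.89 ± 0.32), Ugt2b5 and Cyp2c65 (0.84 ± 0.16), all without overlap. Ugt2b5, a glucuronosyltransferase, had 27 to 29 counts in the high libraries and 1 to 19 counts in the low libraries, and means of 72.6 CPM and 23.3 CPM. Cyp4b1 had 21 to 35 counts in the high libraries and 1 to 7 counts in the low libraries. In the list of lipid handling, 1 of 25 was higher, Ppara, a nuclear receptor for fatty acids (1.15 ± 0.25), and its classes overlapped. Of 12 carbonic anhydrases 2 were higher, Car8 (0.90 ± 0.15) and Car1 (0.46 ± 0.12). Car1, a common marker of the colon, had 311 to 359 counts against 147 to 292 counts, but its normalized values overlapped (674 to 1097 CPM against 434 to 761 CPM), and it kept its call in 12 of 22 alternatives.

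Hormone genes of the enteroendocrine cells went in both directions, with 5 of 21 higher and 1 lower, against 0.763% and 0.866% of all genes. The higher ones included Nts, Chga, the granule protein chromogranin A (0.98 ± 0.17), and Sst, somatostatin (0.93 ± 0.24). The lower one was Insl5, a peptide of the L cells of the lower colon, which had 0, 2, 12 and 32 counts in the high libraries and 23, 43, 30, 35 and 50 counts in the low libraries. It fell by 1.86 (edgeR, SE 0.26, Benjamini-Hochberg adjusted p = 1.5e-10), and the log2 fold change of Insl5 was -2.92 without WT_EE mouse 3. The classes overlapped because WT_EE mouse 3, at 69.3 CPM, lay above WT_SE mouse 1, at 59.9 CPM.

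Markers given for the distal colon had 8 of 24 members lower, against 0.866% of all genes, and none higher. Of the 24 fold changes 23 were below 0 with a median of -0.42. Aqp8, Hoxb13, Insl5 and Mptx1, a mucosal pentraxin, led this list. Mptx1 had 7, 4 and 9 counts in WT_SE mice 2 and 3 and WT_EE mouse 1 but 252 counts in WT_EE mouse 3, and 7 counts in WT_SE mouse 1 against 181, 163, 248 and 137 counts in the other low libraries. It fell by 1.52 (edgeR, SE 0.15, Benjamini-Hochberg adjusted p = 8.34e-22), but 1 library of each class lay with the other class. The SE and p-value do not measure that spread. The log2 fold change of Mptx1 was -4.34 without WT_EE mouse 3 and -0.86 without WT_SE mouse 5. Markers given for the proximal colon and cecum did not move as a group, with 4 of 19 higher, 6 lower and a median of -0.14. Osr2 and Hoxb6 were higher, whereas Retnlb, Aqp4, Clca4a and Ang4, an antimicrobial ribonuclease of goblet and crypt cells (-1.38 ± 0.17), were lower. The log2 fold change of Ang4 was -2.57 without WT_EE mouse 3. Of the 19 fold changes, 8 were above 0 and 11 below. Hoxb3 to Hoxb8, Osr2 and 4 bile acid genes went with the name proximal-like. The 6 lower members of the list, Zg16 also among them, went against it. The list as a whole did not bear the name out, and the classes are called by Slc10a2 throughout.

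Ion and water transport had 5 of 33 members lower, against 0.866% of all genes, and none higher. They included Aqp8, Aqp4, Slc26a3, the chloride-bicarbonate exchanger of the surface cells (-0.57 ± 0.13), and Slc16a1, a carrier of lactate and butyrate (-0.57 ± 0.14). Slc26a3 had 98 to 139 counts in the high libraries and 134 to 169 counts in the low libraries and overlapped only before normalization. Goblet cell and mucin genes had 6 of 24 lower and none higher, with 21 of 24 fold changes below 0 and a median of -0.29. Clca1, a secreted protease of the mucus, fell by 0.59 (edgeR, SE 0.13, Benjamini-Hochberg adjusted p = 0.000631) and Zg16, a lectin of the mucus, by 0.46 (edgeR, SE 0.12, Benjamini-Hochberg adjusted p = 0.0163), and both overlapped. Secreted antimicrobial and defence genes had 2 of 26 higher, Reg3b and Reg3g, and 6 lower, among them Mptx1, Retnlb and Ang4. Over all genes 0.763% were higher and 0.866% lower.

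**Figure D4:**
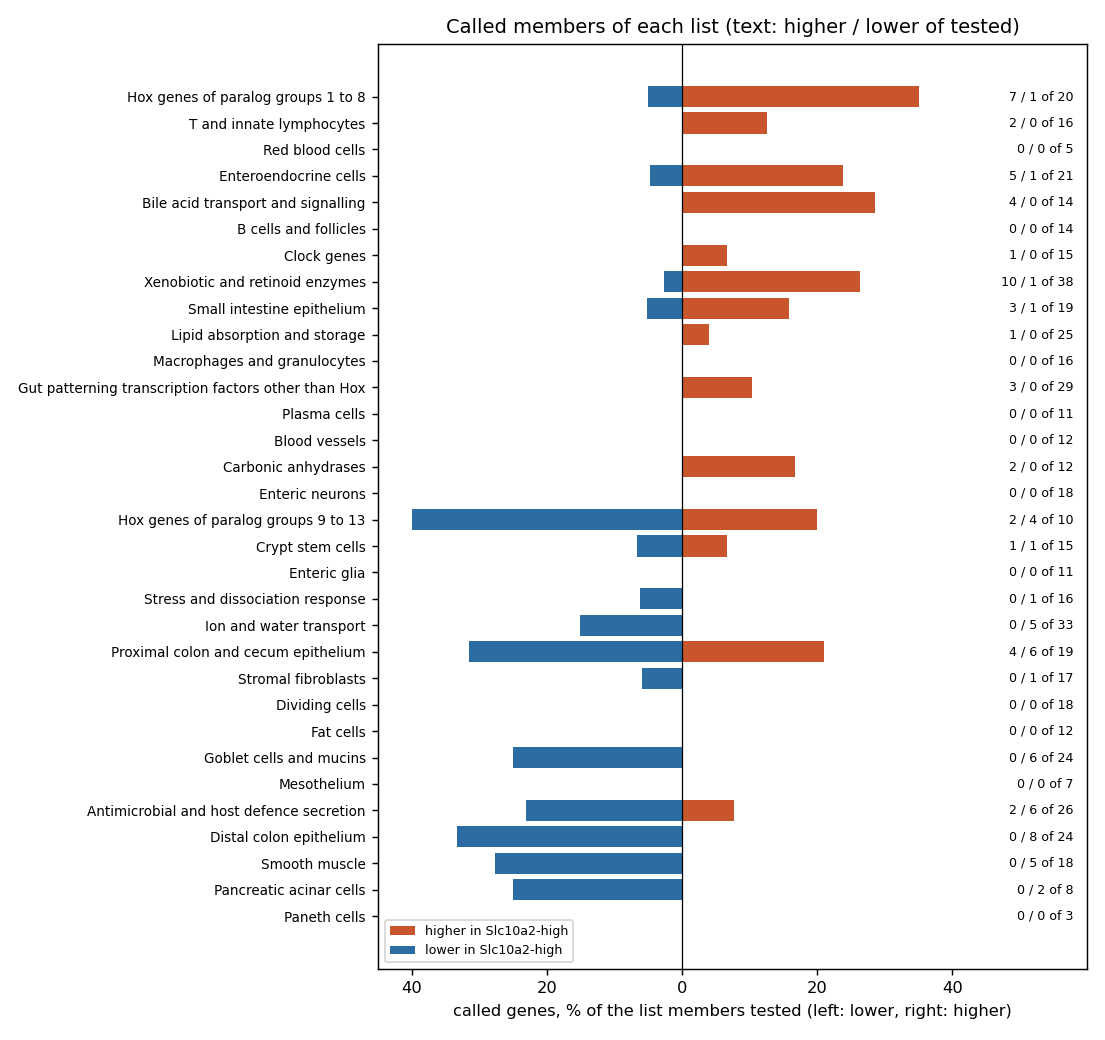
Share of the tested members of each list (rows, in order of the median log2 fold change) that were higher (orange, to the right) or lower (blue, to the left) in the Slc10a2-high class, with the counts printed at the right. Over all genes 0.763% were higher and 0.866% lower. The early Hox, bile acid and xenobiotic lists had more called genes higher than lower (7, 4 and 10 higher of 20, 14 and 38 tested), the called genes of the distal colon, goblet and smooth muscle lists were lower (8 of 24, 6 of 24 and 5 of 18), and in each of these lists most members were called in neither direction.

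Genes of the muscle wall moved with the classes as well. Smooth muscle genes had 5 of 18 lower, against 0.866% of all genes, and none higher. Of the 18 fold changes 17 were below 0, with a median of -0.42. Actg2, the actin of visceral muscle, fell by 0.74 (edgeR, SE 0.14, Benjamini-Hochberg adjusted p = 2.02e-05), Acta2 by 0.57, the filament protein Des by 0.57 and the kinase Mylk by 0.46. Within WT_SE and WT_EE the log2 fold changes were -0.76 and -0.72 for Actg2 and -0.13 and -0.91 for Acta2. They were -0.42 and -0.67 for Des and -0.30 and -0.57 for Mylk. The summed level of the list was 4137 to 4326 CPM in the high libraries and 4647 to 6985 CPM in the low libraries, without overlap. The highest sums, 6985 and 6918 CPM, were those of WT_EE mice 2 and 4, the low WT_EE libraries with the smallest totals. The part of depth in these falls, and of the muscle share in the differences of other genes, was not tested. Enteric neurons (0 of 18), enteric glia (0 of 11), mesothelium (0 of 7), vessels (0 of 12), macrophages and granulocytes (0 of 16), plasma cells (0 of 11), B cells (0 of 14), fat cells (0 of 12) and red blood cells (0 of 5) had no member past the threshold. Over all genes 1.63% were called, so a list this short without a call does not show that the cell type was equal. A summed level without overlap was also not particular to muscle. Vessels had 604 to 635 CPM in the high and 659 to 897 CPM in the low libraries. Red blood cells had 230 to 303 against 129 to 211 CPM. Goblet cell and ion transport sums did not overlap either, whereas those of enteric neurons and glia did.

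Among lymphocyte genes, 2 of 16 were higher, against 0.763% of all genes, with 15 of 16 fold changes above 0 and a median of 0.76. Gzma, granzyme A of cytotoxic lymphocytes, had 16, 11, 10 and 21 counts in the high libraries and 0, 1, 3, 1 and 2 counts in the low libraries. It rose by 3.13 ± 0.48 (edgeR, Benjamini-Hochberg adjusted p = 2.11e-08) without overlap, and all low libraries were at or under the floor. Ccl5, a chemokine of the same cells, rose by 1.34 (edgeR, SE 0.34, Benjamini-Hochberg adjusted p = 0.00741), but 40 of its 69 counts in the high class came from WT_EE mouse 3 and WT_SE mouse 3 had 2. The log2 fold change of Ccl5 was 0.70 without WT_EE mouse 3 and 1.04 without WT_SE mouse 2, and neither passed the test. Of the T-cell receptor complex genes, Cd3e had 1 to 5 counts in the high class and 0 to 2 in the low class, too few to compare. Of the plasma cell genes, Igkc, an immunoglobulin light chain, was at 426 ± 50.5 CPM against 393 ± 24.6 CPM, whereas Ighg2c varied from 0 to 56 counts within the high class and Ighg1 had at most 2 counts.

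In the crypts, Rnf43, a ligase that removes Wnt receptors, rose by 1.05 (edgeR, SE 0.29, Benjamini-Hochberg adjusted p = 0.0246), and Smoc2, a matrix protein of stem cells, fell by 0.97 (edgeR, SE 0.25, Benjamini-Hochberg adjusted p = 0.0113), 1 each of 15 members tested. Genes of dividing cells did not differ past the threshold, 0 of 18, and Top2a was at 230 ± 86.7 CPM against 244 ± 43.0 CPM. In the list of the stress response, Fos, an immediate early gene, fell by 1.01 (edgeR, SE 0.20, Benjamini-Hochberg adjusted p = 0.000102), the only 1 of 16. Among clock genes, Per3 rose by 1.16 (edgeR, SE 0.19, Benjamini-Hochberg adjusted p = 7.78e-07), the only 1 of 15. Over all genes 1.63% were called, so 0 or 1 call in lists this short says little about the list. Of 8 genes tested on the list for pancreatic acinar cells, 2 were lower, Sycn (-1.02 ± 0.17) and Zg16, of which Zg16 is also on the goblet cell list.

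The classes were not 2 uniform states. WT_EE mouse 3 had the highest raw count of Slc10a2, though at 254 CPM it lay inside the range of the high class (232 to 371 CPM). It also had 21 counts of Hoxb13, 252 of Mptx1, 114 of Ang4 and 32 of Insl5, as the low libraries did. WT_SE mouse 1, the low library with the most Slc10a2, had 4 counts of Hoxb13 and 7 of Mptx1, as the high libraries did, and 35 of Slc51a and 46 of Hoxb3, between the classes. Of the 284 called genes, 130 overlapped between the classes, and leaving out WT_SE mouse 1 removed the overlap for 45 of these and leaving out WT_EE mouse 3 for 27. Leaving out both removed it for 69, and leaving out any other library removed it for 3 to 26, the most for WT_EE mouse 1. Without both libraries 170 genes were called, 147 of them among the 284. On the first principal component of the 500 most variable genes, Slc10a2 not included, which held 46.1% of their variance, the high libraries lay at 2.47 to 26.6 and the low libraries at -18.1 to 5.09. The extremes were WT_SE mouse 3 and WT_EE mouse 2, and WT_SE mouse 1 lay above WT_EE mice 1 and 3.

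Within WT_SE, with 2 high and 2 low libraries, 157 genes were called (0.9%), and within WT_EE, with 2 high and 3 low libraries, 185 (1.06%). Both calls were made for 72 genes, and 66 of these had the same sign. Of the 133 higher genes 130 were higher in both environments and of the 151 lower genes 147 were lower in both. These genes were called over the same libraries, so this sharing of signs was largely fixed by the choice. The size of the fall differed between environments for several genes. The log2 fold change of Retnlb was -3.32 in WT_SE and -0.78 in WT_EE, that of Aqp8 -3.13 and -1.08, that of 2010109I03Rik -4.82 and -1.42, and that of Mptx1 -3.89 and -0.94. The test of that difference called 32 genes in all (0.183%), 19 of them among the 284, and the newer form of the test called 4. Library totals ran with the class in each environment, smaller in the high libraries of WT_SE and larger in those of WT_EE. The part of depth in the class differences within environments, and in their difference, was not tested. Among the higher genes, Reg3b had 4.27 and 3.70 and Slc51a 2.11 and 2.32, and no named gene that passed the test as higher in the Slc10a2-high class was called for a difference between environments.

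**Figure D5:**
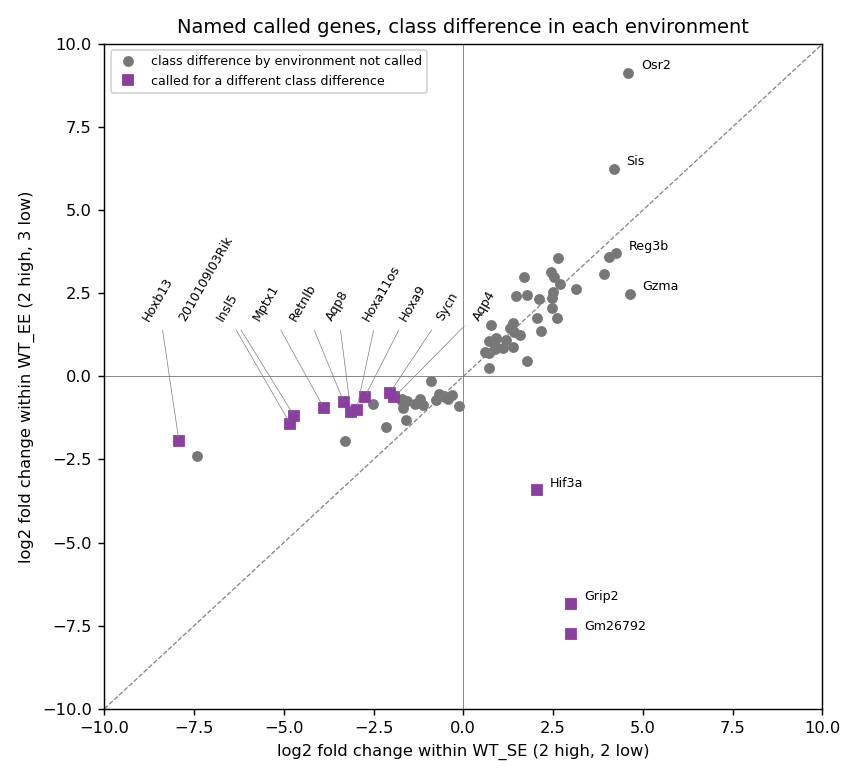
Log2 fold change of the Slc10a2-high against the Slc10a2-low class within WT_SE (horizontal axis) and within WT_EE (vertical axis) for the named genes that passed the test; purple squares mark genes whose class difference itself differed between environments, and the dashed line marks equal values. The higher genes lie at the upper right, most purple genes fell further in WT_SE (Retnlb -3.32 against -0.78), and Hif3a, Grip2 and Gm26792 have opposite signs; values against libraries at 0 counts, such as Osr2 in WT_EE, are fitted and give no bound.

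The comparison of environments that the study was made for also changed with the class. With environment as the only term 7 genes were called between WT_EE and WT_SE (0.0401%). With the class as a second term 187 genes were called (1.07%), all 7 among them, and 128 were higher in WT_EE. Of the 187 genes 56 were also called for the class. The spread between mice, as edgeR's biological coefficient of variation shared by all genes, was 15.1% without the class and 12.6% with it. The class was made from a measured gene of these same libraries, with earlier results known, so a smaller spread with it was partly fixed by that choice. The rise in calls also rests on the form of the test. In edgeR's newer form 11 genes were called with the class and 0 without it. Without it, 1381 genes had an unadjusted p under 0.05.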

How the data were processed

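3′ messenger RNA libraries (QuantSeq FWD) of upper colon from 9 wild-type mice were used. The authors deposited molecule counts per gene as whole numbers without normalization; the submitters' processing notes name fastp 0.20.0, STAR 2.7.0f, Subread, featureCounts 1.6.0, UMI-tools and build GRCm38.p6, and the paper's methods name another STAR version. Symbols and positions came from GENCODE mouse release 21 for 22256 of 22262 genes with a count. The classes, members and lists were chosen with earlier results of these data known. The filter kept the 17441 genes that reached 4 CPM in 1 library or more. Counts were TMM-normalized and tested in R 4.3.3 with edgeR 4.0.16 (quasi-likelihood, terms environment and class) and p-values were adjusted over all genes by the Benjamini-Hochberg method. In this fit the prior degrees of freedom were infinite, so that no gene's own spread entered the p-values or the SEs. Class effects within environments and their difference came from a model of 4 groups. The procedure was tested on simulated data. The simulation gave every gene the same spread, so it could not show how the test behaves where genes differ in spread.

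Genes named in the text were the 5 markers of the rule, in each direction the 12 called genes of smallest p whose classes did not overlap and whose higher class had a mean of at least 10 counts, up to 4 called genes of each list by p (or, where none was called, the 2 members of the highest mean, given only where they bear on a result), and the 5 genes with the smallest p for a class difference that differed between environments. Hox clusters and the gut factors with intervals were added after their values were seen, and so were single list members given at or near 0. Some results on transcription factors and promoter sequences are not reported here. The 95% intervals of fold changes take the SE as normal. Alternatives were other normalizations, filters and tests (limma 3.58.1, DESeq2 1.42.0), other terms, the mouse number as a block, and each library left out. Library names end differently for WT_SE mice 1 and 3 than for the other 7 libraries, and 1 of these mice is in each class. Figures were drawn with matplotlib 3.10.9.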

Additional observations from a re-analysis of the deposited data

Results flagged for a closer look

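In all, 142 groups were looked at, 71 called genes in each class with Slc10a2 included. Of these, 10 held a library far from the others of its class, none of them for Slc10a2. Chance gives about 1 in 20 groups, or 7.1, if the groups are independent and normal. Genes measured in the same libraries are not independent, so that number is only a rough guide. Of the 10, 5 were WT_SE mouse 1 within the low class. It had 18.2 CPM of Osr2 against 0 to 2.73 CPM in the other low libraries, 80.8 CPM of Fmo5 against 27.7 to 38.2, 119.8 CPM of Hoxb3 against 43.6 to 55.6, 33.9 CPM of Cyp2d26 against 6.95 to 13.6, and 59.9 CPM of Insl5 against 104 to 117. In each of these 5 genes the value lay toward the high class. WT_EE mouse 3 stood apart within the high class with 45.5 CPM of Hoxb13 against 0 in the other 3 libraries and 546 CPM of Mptx1 against 13.5 to 19.5. In WT_EE mouse 2, Hoxb4 was at 66.1 CPM against 20.8 to 33.9 in the other low libraries. Grip2 in WT_SE mouse 2 was at 80.6 CPM against 3.37 to 6.50 in the other high libraries, and Hif3a in WT_EE mouse 4 at 280.3 CPM against 5.46 to 62.6 in the other low libraries.

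The class difference itself differed between the environments for 14 named genes (edgeR, Benjamini-Hochberg adjusted p under 0.05), given here as the log2 fold change in WT_EE minus that in WT_SE. Genes that fell further in WT_SE had values above 0, namely Mptx1 2.96, Retnlb 2.54, Aqp8 2.06, 2010109I03Rik 3.40, Insl5 3.51, Aqp4 1.30, Hoxa9 2.13, Hoxb13 5.99, Sycn 1.55 and Hoxa11os 1.97. Both high WT_SE libraries had 0 counts of Hoxb13, so that its value is fitted and gives no bound. Grip2 (-9.85), Gm26792 (-10.76), Hif3a (-5.48) and Gm43960 (-7.45) had opposite signs in the 2 environments. Gm43960, which was not called for the class, had 384 to 494 counts in WT_SE mouse 2 and WT_EE mice 1, 2, 4 and 5 and 2 to 5 counts in the other 4 libraries. Grip2 had 442 counts in WT_EE mouse 2 and 357 in WT_EE mouse 5 and at most 29 in any other library, and its call for the class (-3.95 ± 0.23) rests on these 2 libraries. Gm26792 had 0 counts in both high WT_EE libraries, and its value is no bound.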

How the results depend on the processing

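Against 284 calls for the class, 151 were made with at least 10 CPM in at least 4 libraries, 81 by DESeq2, 163 by limma-voom, 185 without the environment term, 170 by edgeR's newer robust form and 170 without both libraries between the classes; these last 2 and the newer form were chosen after seeing the data. Leaving out each library gave 196 (without WT_EE mouse 1) to 301. Environment calls with the class (187) became 8 under the stricter filter, 11 and 25 in the newer and newer robust forms, and 62 to 326 with a library left out, the lowest without WT_SE mouse 1 and the highest without WT_SE mouse 2. Without the class (7) they became 0, 0, 3, and 0 to 44, the highest without WT_EE mouse 1; the edgeR fits with 0 calls had 1053, 1381 and 898 genes at an unadjusted p under 0.05. Calls within WT_SE (157) became 72, 77, 80 and 81 to 189, the lowest without WT_SE mouse 5. Calls within WT_EE (185) became 48, 60, 63 and 73 to 528, and those of a class difference that differed between environments (32) 5, 4, 3 and 20 to 138, the highest of both without WT_EE mouse 5. A left-out library can leave 1 library in a class and environment, which is then assumed to vary like the others. The mouse number as a block gave 104 class calls, 84 of them among the 284, and 109 and 76 environment calls with and without the class. Same-numbered mice are different animals, and the correlations of their deviations (-0.02, 0.04, 0.11 and 0.13) do not pair them. Under the block Grip2 (1.51), Gm26792 (0.87) and Hif3a (0.10) turned direction.

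Of 1539 refits of the 70 called genes named here, 1329 kept the call and the direction, 207 kept only the direction and 3 turned, and 27 genes kept both throughout, among them Osr2, Reg3b, Slc51a, Fabp6, Sis, Hoxb3, Hoxb4, Hoxb6 and Hoxd4. Of 22 alternatives (21 for Hif3a), Zg16 and Gm26792 kept their call in 8, Hoxd11, Mylk and Hif3a in 10, Car1, Rnf43 and Sst in 12, Ccl5 in 13, Acta2, Clca1, Des and Slc16a1 in 15, and Hoxa13, Smoc2 and Mptx1 in 16. Log2 fold changes ranged from -4.81 to -0.86 for Mptx1, -2.99 to -0.81 for Ang4 and 0.38 to 2.63 for Ccl5. The causes were not tested. Genes with few counts, such as Hoxd10, are limited by depth.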
